A study of Mus musculus with 2 samples.

Results

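TOBF1 ChIP-Seq peaks were examined at 8 immediate early transcription factor genes: Fos, Fosb, Jun, Junb, Egr1, Ier2, Klf6 and Atf3. A peak was assigned to a gene when its midpoint lay inside the RefSeq span of the gene or within 20 kb of it, and all 8 symbols matched 1 of the 21883 protein-coding genes placed on chromosomes 1 to 19, X and Y. Only Klf6 and Ier2 had a peak by this rule, with 2 peaks each. Fos, Fosb, Jun, Junb, Atf3 and Egr1 had none, and the peak closest to any of these 6 genes was 45.7 kb away. The 8 genes therefore had a peak in 25.0% of cases, beside 27.5% of all protein-coding genes.

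R1/E mouse embryonic stem (ES) cells were used, kept in medium with serum and LIF, the cytokine that maintains their undifferentiated state. They carried a tagged TOBF1 gene (A830080D01Rik) on a bacterial artificial chromosome (BAC), a long insert of genomic DNA. Chromatin crosslinked with formaldehyde and DSG was precipitated with an anti-GFP antibody in 1 library. The other library, from cells with the same BAC, was an input without antibody and was not analysed here. The sources used here do not state whether the line was 1 clone, nor how much tagged protein it made. No expression was measured, so the cell type could not be checked against its markers. With 1 precipitated library there is no replicate error for any value, and no test of a difference was made. No precipitation from cells without the tag was used here, so binding of TOBF1 and signal that another antibody would also give at these places cannot be told apart.

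Of the 12181 listed peaks, 12012 lay on the chromosomes, and the median peak width was 216 bp. Each peak carries the authors' own score, taken to be the −log10 q-value of the call, where a higher score means stronger statistical support over the local background. Scores ran from 1.30 to 216.1 with a median of 9.97, and were used only to rank and describe peaks within this list. Sequencing depth is unknown, so a gene without a listed peak had none that passed the authors' call, which does not show that the protein was absent there.

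Immediate early genes are switched on within minutes of a signal such as serum, a growth factor or stress, without new protein synthesis. Serum response factor (SRF) and its ELK partners, themselves targets of the ERK kinases, and CREB-type factors sit on their promoters and start this response. Many of the products are transcription factors. FOS and JUN proteins pair to form AP-1, ATF3 is a relative that can pair with JUN proteins, EGR1 and KLF6 bind GC-rich DNA through zinc fingers, and IER2 is a nuclear protein made in the same burst.

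The promoter sequences of the members were read for motifs of CREB, AP-1, EGR and related factors, and no motif was found in all of them. RefSeq promoter windows of the GRCm38.p6 assembly, from 250 bases before to 50 bases after the start of a gene, were matched for 6 members, namely Fos, Fosb, Jun, Junb, Atf3 and Klf6. Ier2 and Egr1 had no entry. The stretches below show, in capitals, the letters TGACG, which are the core of the element bound by CREB and ATF proteins, or TGACATCA, a variant of the same element known from the Jun promoter. In the Fosb stretch the letters GCGGGGGCG, a motif of EGR proteins, are also in capitals. All are written along the strand of the gene and end before the start given by its promoter entry. For Fosb that start lies inside the gene span used for the peaks, which ends at 19310118. The Fosb stretch therefore lies within that span.
Klf6 (chr13:5861359-5861388, + strand): ttggtgcgagcTGACATCAtcgtcgcgcag
Jun (chr4:95052249-95052278, - strand): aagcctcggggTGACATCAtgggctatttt
Fos (chr12:85473811-85473840, + strand): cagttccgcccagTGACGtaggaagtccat
Fosb (chr7:19310082-19310111, - strand): tgcgggTGACGcaagcGCGGGGGCGggtcc
Junb (chr8:84978838-84978867, - strand): cgcttcctgacagTGACGcgagccgcctcc
Atf3 (chr1:191183334-191183363, - strand): cctggaagctattaatagcattaCGTCAgc

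TGACATCA began 119 bases before the start of Klf6 and 45 bases before that of Jun. TGACG began 66 bases before the start of Fos, which held another copy 129 bases before it. It began 60 bases before the promoter-entry start of Fosb and 106 bases before the start of Junb. At Atf3 the letters lay on the opposite strand, so they read CGTCA above, 7 bases before the start. Both motifs were chosen after the promoter sequences were seen and were searched on both strands. TGACG occurred in 4 of the 6 member promoters and in 20.8% of all 32851 promoter windows of the table, and TGACATCA in 2 of 6 and 3.62%. GCGGGGGCG occurred in 1 of 6 and 2.91%. The CArG box, the element bound by SRF, and TGACTCA (the AP-1 site), TGACGTCA, GCGTGGGCG, ATGCAAAT and CCGGAAG had no match in the 6 windows. Among all windows these 6 motifs occurred in 1.63%, 5.20%, 1.79%, 0.612%, 1.74% and 8.86%, respectively. Sequence farther than 250 bases before the start was not searched. A missing match therefore does not show that a gene lacks the element, such as a CArG box, farther upstream. Of the genes with a window only Klf6 had a peak within 20 kb. It held TGACATCA, as did Jun, which had no peak, and it held no TGACG, while the 4 genes with TGACG had no peak. With 1 such gene, motifs and peaks cannot be compared. None of the 6 windows held a peak midpoint, and the sequence under the peaks was not used here.

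Klf6, a zinc finger factor that binds GC-rich promoters, was the member with the strongest peaks. The gene lies on the + strand of chromosome 13 at 5861489 to 5870393 (mm10). Its strongest peak lay 8.57 kb beyond the end of the gene (5878842 to 5879092, 251 bp wide) with a score of 31.0, which was rank 1544 of the 12181 peaks. The other peak lay upstream of the promoter, with its midpoint 601 bp before the start of the gene (5860812 to 5860964, 153 bp wide). Its score of 7.13 was below the median of the list, at rank 8117. It stopped 274 bp short of the promoter window that holds the TGACATCA shown above. Klf6 thus combined a promoter-side peak of modest score with a distal peak in the top 12.7% of the list.

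**Figure D1:**
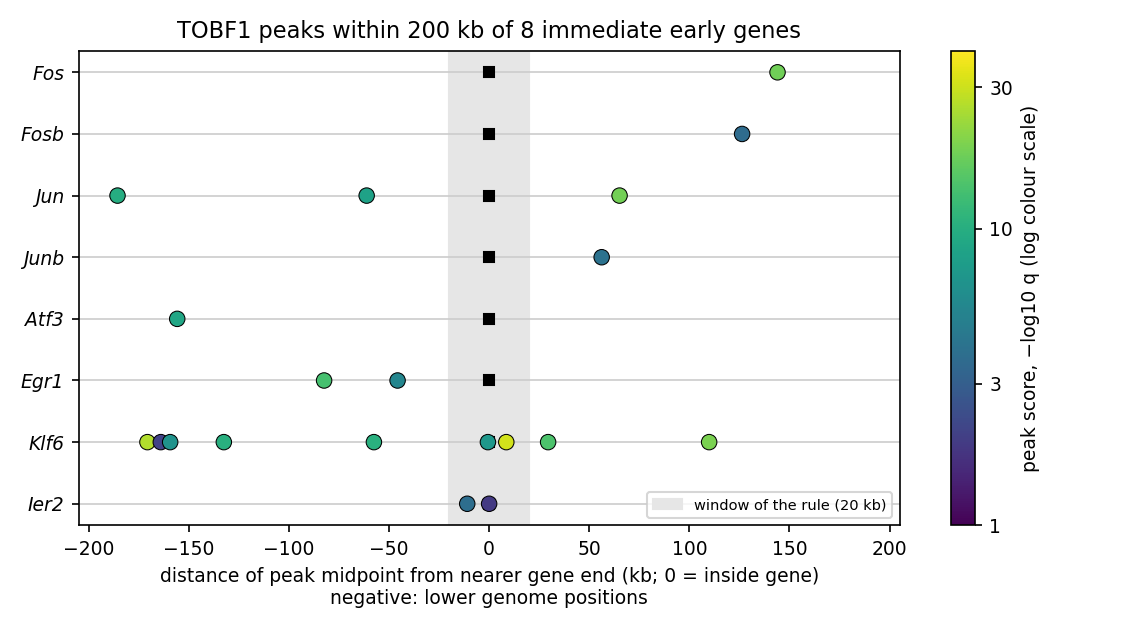
Peaks within 200 kb of each of the 8 genes. The x axis gives the distance of the peak midpoint from the nearer gene end in kb (0 for a peak inside the gene, negative towards lower genome positions), black squares are the genes, circles are peaks coloured by score, and the grey band is the 20 kb window. Only Klf6 and Ier2 have circles in the band, 2 each.

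Peaks also lay around Klf6 outside the 20 kb window. The next was 29.5 kb beyond the gene (score 14.0), and 4 peaks in all lay within 100 kb. Within 500 kb there were 14 peaks, beside a median of 5 and an upper quartile of 7 over all protein-coding genes. Klf6 was the nearest protein-coding gene for each of these 14, of which 11 lay below the gene and 3 above it, the farthest 416.6 kb away. Their scores ran from 2.07 to 31.0 with a median of 10.3, and 8 of them reached the median of the list. Of these peaks, the one with the second highest score (29.5) lay 311.0 kb below the gene and the third (26.1) 170.7 kb below it.

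The stretch in which Klf6 is the nearest coding gene is large, because its neighbours Akr1e1 and Pitrm1 lie 1252 kb and 677.7 kb away. It spans 0.974 Mb and held 14.4 peaks per Mb, beside 6.93 peaks per Mb over chromosome 13 from its first to its last peak. Of all protein-coding genes, 27 (0.123%) were nearest to 14 or more peaks, a count that grows with the size of such a stretch. Among the 14 peaks, those at 5583838 to 5584075 and at 5584153 to 5584422 would be joined if peaks within 1 kb were merged. No peaks were merged for these counts and densities. Long non-coding RNA genes lie in the same stretch, and 3 of the 14 peaks were inside one, 2 in Gm35330 and 1 in Gm46401. Being nearest is a statement of position only, and which gene a distant peak acts on was not measured.

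Ier2, whose product is a nuclear protein made early after serum, had 2 peaks of low score. The gene is the shortest of the 8, at 1522 bp (chromosome 8, 84661331 to 84662852). A peak inside it (84662696 to 84662846, 151 bp wide) had its midpoint 81 bp from the upper end of the gene and a score of 1.86, at rank 12072 of 12181 and close to the lowest score that was listed. The other peak (84650292 to 84650497) lay 10.9 kb below the gene with a score of 3.71, at rank 11141. That peak was closer to another gene, the calcium channel gene Cacna1a, which was 10.1 kb from it. Both Ier2 peaks thus ranked near the bottom of the list, and only the one inside the gene had Ier2 as its nearest coding gene.

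**Figure D2:**
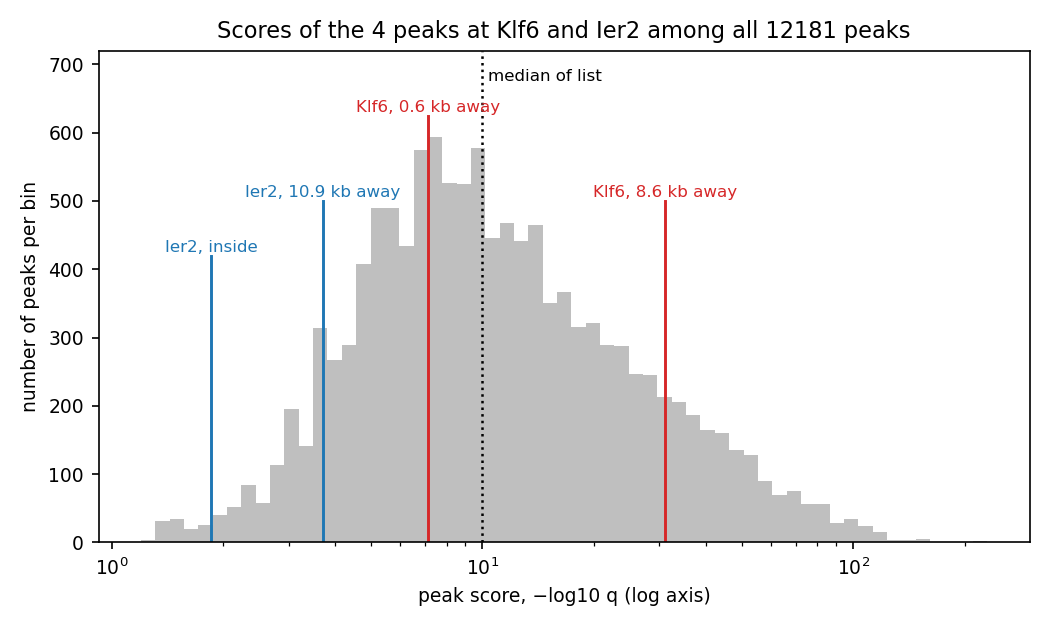
Scores of the 4 peaks within 20 kb of Klf6 and Ier2, drawn as vertical lines over the distribution of all 12181 peaks (grey, number of peaks per bin, with a log x axis). The distal Klf6 peak (31.0) lies to the right of the median of the list (dotted, 9.97), and the other Klf6 peak (7.13) and both Ier2 peaks (3.71 and 1.86) lie to its left.

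The 4 peaks had a median score of 5.42, and 1 of them reached the median of the list. Both genes had a peak within 1 kb of a gene end, so 2 of the 8 members did, beside 2.67% of all protein-coding genes and 3.01% of genes no longer than Atf3, the longest member at 13038 bp. The highest score at such an end was 7.13 at Klf6 and 1.86 at Ier2, beside a median of 8.07 over the 585 genes with a peak at an end. With 8 genes, 1 gene more or less changes the share by more than the whole background share. When peaks under the median score were left out, no member kept a peak at an end and 1 member, Klf6, had a peak within 20 kb, beside 16.9% of all genes. The share of all genes that kept a peak at an end was not counted. Long genes take in more peaks by the 20 kb rule, and among the 9342 genes no longer than Atf3 the share with a peak was 17.6%. Having 2 peaks or more, as Klf6 and Ier2 did, was seen in 9.72% of all genes and in 4.82% of the short ones.

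Neither of the Fos family members had a peak near it. Fos (chromosome 12, 85473890 to 85477274) had 0 peaks within 100 kb and 1 within 500 kb. That peak lay 144.1 kb above the gene (85621224 to 85621431, score 18.0) and inside Jdp2, which encodes an AP-1 family protein known as a repressor and begins 121.4 kb beyond Fos. Fosb (chromosome 7, 19302696 to 19310118) also had 0 peaks within 100 kb and 2 within 500 kb. The nearer of these was inside the kinase gene Mark4, 126.4 kb away, with a score of 3.61. No peak had Fos or Fosb as its nearest coding gene. A lack of peaks within 100 kb was common, and 41.0% of protein-coding genes had none.

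The Jun family members lay somewhat closer to peaks than the Fos family did. Jun (chromosome 4, 95049036 to 95052222) had peaks 61.2 kb below the gene (94987789 to 94987940, score 8.31) and 65.2 kb above it (95117275 to 95117486, score 18.1). The weaker of them lay inside the long non-coding RNA gene Gm12694 and was closer to the coding gene Mysm1, 8.71 kb away. The stronger lay inside Junos, a long non-coding RNA gene next to Jun, and had Jun as its nearest coding gene. Another peak with Jun as the nearest coding gene lay 219.5 kb above it (score 6.65). Junb (chromosome 8, 84976909 to 84978748) sits among closely spaced genes, with Prdx2 2.10 kb below and Hook2 10.0 kb above it. Its nearest peak was 56.2 kb above the gene with a score of 3.98, and lay 1.91 kb from Tnpo2, an import receptor gene. On the lower side the nearest peak to Junb was the one inside Ier2, 314.1 kb away. No peak had Junb as its nearest coding gene.

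Atf3, a stress-induced factor of the CREB and ATF family, was the member farthest from a peak. The gene (chromosome 1, 191170296 to 191183333) had 0 peaks within 100 kb, and its nearest peak lay 155.8 kb below it inside Flvcr1, a transporter gene (score 8.88). Within 500 kb there were 4 peaks, and each was closer to another coding gene.

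Egr1, the zinc finger factor best known as a readout of ERK signalling, had no peak within 20 kb. It lies on chromosome 18 at 34861207 to 34864956. Its nearest peak was 45.7 kb below it (34815412 to 34815555, score 5.41), inside the histone demethylase gene Kdm3b, which held another peak 82.4 kb from Egr1 (score 13.4). Within 500 kb there were 8 peaks, the second highest number among the members after Klf6. The strongest of these was 273.3 kb above Egr1 inside Ctnna1, the gene of alpha-catenin, with a score of 73.0 at rank 226 of the list. Each of the 8 was closer to another coding gene than to Egr1.

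Ordered by the distance to the nearest peak, the members ran from Ier2 (inside the gene) and Klf6 (0.601 kb) to Egr1 (45.7 kb), Junb (56.2 kb), Jun (61.2 kb), Fosb (126.4 kb), Fos (144.1 kb) and Atf3 (155.8 kb). The median was 58.7 kb, beside 71.1 kb over all protein-coding genes and 99.0 kb over those no longer than Atf3. The share of all genes with a peak at least as near was 40.1% for Egr1, 44.5% for Junb, 46.4% for Jun, 65.7% for Fosb, 69.4% for Fos and 71.5% for Atf3. These 6 genes fell in the middle range of all genes and did not stand at the far end of it. At the 20 kb limit itself, the outermost peak inside was that of Ier2 at 10.9 kb and the first outside was that of Klf6 at 29.5 kb, so no assignment lay close to the limit.

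**Figure D3:**
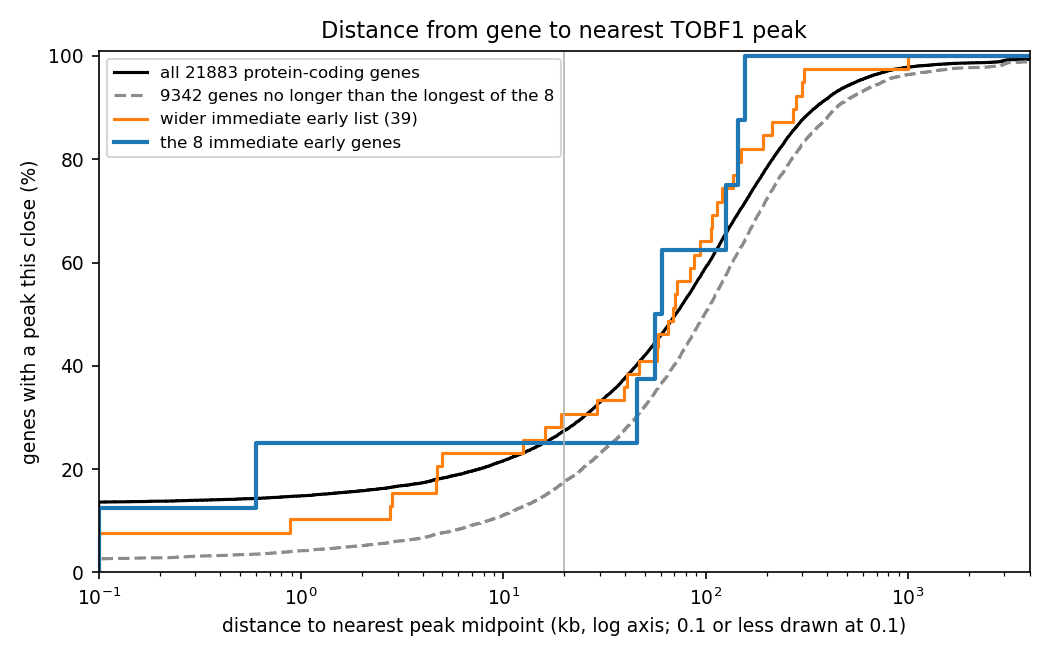
Share of genes (y axis, percent) with a peak midpoint within a given distance (x axis, kb, log scale) for the 8 members, the 39 genes of the wider list, all 21883 protein-coding genes and the 9342 genes no longer than Atf3. The line of the 8 members stays at 25.0% from 0.601 kb to 45.7 kb and reaches its highest value at 155.8 kb, and the vertical line marks 20 kb.

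A wider list of 39 genes of the same response was counted in the same way, to see whether other immediate early genes and the factors that switch them on had peaks. Of these, 12 had a peak in the gene or within 20 kb (30.8%), beside 27.5% of all protein-coding genes. Among the 26 that were no longer than Atf3, 8 had one (30.8%), beside 17.6% of genes of such length. The list holds Klf2, Klf4 and Myc, which also belong to the factors that keep ES cells undifferentiated, and without them 9 of 36 genes (25.0%), or 5 of 23 short ones (21.7%), had a peak. The share was thus close to that of all genes, and among short genes it was above their background of 17.6%. Klf2, Klf4 and Myc each had a peak and were left out after the data were seen. Leaving them out could therefore only lower the share, and no conclusion is drawn from the drop.

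The counts by role are small, and each is to be read beside the 27.5% of all protein-coding genes, or 17.6% of those no longer than Atf3, that had a peak. Of 9 AP-1 relatives, 1 had a peak, namely Jdp2, whose single peak (18.0) is the one nearest to Fos. Fosl1, Fosl2, Jund, Batf, Batf3, Maff, Mafk and Mafg had none. Most genes of any kind lack a peak at these background shares, so the absence at these genes, and at Fos, Fosb, Jun and Junb, does not set them apart. The 3 nuclear receptor genes Nr4a1, Nr4a2 and Nr4a3 had none either.

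Zinc finger genes had peaks in 3 of 6 cases, all of them members of the Krüppel-like family. Klf2 had 2 peaks, the stronger 2.82 kb from the gene with a score of 80.2. Klf4 had 2 peaks, with the stronger at 7.31 kb (16.2), and Klf10, which is induced by TGF-beta, had 1 peak 12.5 kb away (19.9). Egr2, Egr3 and Egr4 had none, as was the case for Egr1. Having no peak was the usual case among all genes, so the Egr genes do not stand apart by it. These genes were picked for their early response, so the counts describe them and not the families as a whole.

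Among early products that are not transcription factors, 4 of 12 genes had a peak (33.3%, beside 27.5% of all protein-coding genes). Ccn2, which encodes a matricellular growth factor, had a peak 4.71 kb away with a score of 42.8. Arc had 2 peaks at the edge of the window, the stronger 19.1 kb away (35.0) and closer to Jrk. Dusp1, which encodes a phosphatase that switches off MAP kinases, had 2 peaks, the stronger 3.02 kb away (15.7), and Ier5l had 1 within 1 kb of its end (3.20). Of the remaining early transcription factors, Myc had 2 peaks, the stronger 6.21 kb away (37.0), and Npas4 had none.

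Of the 7 genes for factors that switch immediate early genes on, 3 had a peak, beside 27.5% of all protein-coding genes. Some of these 7 are long, such as Mrtfa (178456 bp), Mrtfb (161474 bp) and Creb1 (71755 bp), and long genes take in more peaks by this rule. Elk3, an ELK partner of SRF, had 1 peak 4.97 kb away with a score of 19.8, which was assigned to Cdk17 as its nearest gene. Mrtfb, a coactivator of SRF, had 1 peak inside the gene (7.76), and Creb1 had 1 peak 19.2 kb away (4.93) that was closer to Mettl21a. Srf itself, Elk1, Elk4 and Mrtfa had none.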

How the data were processed

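The TOBF1 peak list was used as deposited. The submitters' processing notes name the tools cutadapt, Bowtie2, MACS2 and bedtools and the build mm10; their versions and settings, and the role of the input in the peak call, are not stated there. The unit of the deposited score, −log10 q-value, was inferred from its lowest value, 1.30, which would be a q-value of 0.0497. Positions count from 1.

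Gene spans and promoter windows came from RefSeq tables of GRCm38.p6, which shares its chromosome coordinates with mm10. The gene table has no strand, so a peak at a gene end was counted at either end of the span, for every gene. Strand and start were taken from promoter entries only to describe promoter sequences and the sides of the Klf6 peaks. The 169 peaks outside the chromosomes could not be assigned to genes. The members and gene lists were chosen with earlier results of these data known. All members were described, with the genes of the wider list that had a peak and the genes nearest to member peaks; genes around the members outside those were named for the peaks they hold. Alternatives were windows of 5, 10 and 50 kb, ends within 500 bp or 5 kb, any overlap, leaving out peaks under the median score, peaks within 1 kb merged, and genes of every type. Added after seeing the data were counting only peaks nearest to a member, leaving out Klf2, Klf4 and Myc, and 2 motifs. Counting was tested on simulated data, where 100 of 100 peaks placed within 20 kb of a gene were found and 0 of 100 placed beyond it. All simulated peaks lay below a gene, so peaks inside or above a gene and counts at gene ends were not tried. Python 3.11.15, NumPy 2.4.6, pandas 2.3.3 and matplotlib 3.10.9 were used.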

Additional observations from a re-analysis of the deposited data

How the results depend on the processing

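Klf6 and Ier2 were the members with a peak in windows of 5, 10 and 20 kb, with any overlap, with merged peaks and with peaks nearest to the member only. The share of all protein-coding genes was 18.3%, 21.6% and 27.5% in these 3 windows. It was 27.5% with any overlap and 27.4% with merged peaks, and was not counted for peaks nearest to the gene only. A window of 50 kb added Egr1, which gives 3 of 8 genes beside 42.0% of all protein-coding genes. Without the peaks under the median score, 1 member, 1 peak and a median score of 31.0 were left, and 0 members had a peak at a gene end. Within 500 bp of an end 1 member, Ier2, had a peak. The share of all genes with a peak at an end was counted neither without the low-scoring peaks nor within 500 bp. These end counts therefore have no background beside them. The number of peaks near the members, 4, was 2 in a window of 5 kb. Their median score, 5.42, was 4.49 within 5 kb, 7.13 within 10 kb, 6.27 within 50 kb and 7.13 for peaks nearest to the member, a change that follows from which of so few peaks enter. The wider list had a peak at 9 to 16 genes under all alternatives. It had one at 9 of 39 genes within 5 kb and at 9 within 10 kb, beside 18.3% and 21.6% of all protein-coding genes. Within 50 kb the count was 16 of 39, beside 42.0%. Any overlap and merged peaks each gave 12 of 39, beside 27.5% and 27.4%. After low-scoring peaks, those below the list median, were dropped, 9 of 39 were left, beside 16.9%. By the 20 kb rule, genes of every type had a peak in 22.8% of cases. No paired analysis was possible because the series has 1 precipitated library. The unknown depth limits all counts of genes without a peak.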
